A study of Homo sapiens with 4 samples.

Results

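The genes described here encode the mitochondrial adaptor MAVS and adaptors, kinases and ubiquitin ligases that link it to the transcription factors IRF3 and NF-kB. RNF135 is included although it acts before MAVS, on the sensor RIG-I. They were chosen by name (MAVS, RNF135, TRAF3, TRAF6, TRADD, RIPK1, TANK, TBK1, IKBKE and IKBKG) through the platform annotation of the array. Of the 10 genes, 9 had a probe, with 11 probes in all among the 24460 gene probes of the array, and all 9 were detected on every array. The RNA of RIPK1 was not analysed here, because no probe carried its name in the annotation used.

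The RNA was taken from lines of HEK293, an established cell line derived from human embryonic kidney, that carried a transgene for LGP2-4KR or for LGP2. LGP2 (gene DHX58) belongs with RIG-I and MDA5 among the cytoplasmic RNA-binding helicases, and the labels do not define the abbreviation 4KR. The groups were LGP2-4KR Tg cells (4KR cells) 12 h after short poly I:C at 100 ng/ml had been introduced by transfection, unstimulated 4KR cells (0 h), LGP2 Tg cells 12 h after the same transfection and unstimulated LGP2 cells. Each of the 4 groups was 1 single-colour array, so a ratio within a line has no error. The promoter of the transgenes, and whether a line was 1 clone, are not given in the sources used here. No array came from cells transfected without poly I:C, so poly I:C, transfection and 12 h in culture cannot be told apart.

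Short poly I:C is a synthetic double-stranded RNA that mimics viral RNA in the cytoplasm. The helicases RIG-I and MDA5 bind such RNA and seed the assembly of MAVS on the mitochondrial surface. MAVS filaments then gather TRAF ligases, which build ubiquitin chains and bring in the kinases TBK1 and IKK-epsilon for IRF3 and the IKK complex for NF-kB. These proteins are known to be switched by ubiquitin and phosphate, which an RNA array does not measure.

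The arrays detected between 83.2% and 89.2% of gene probes above the blank spots. All 6 HEK293 markers with a probe (PAX2, NEFM, NEFL, KRT18, VIM and LIN28B) were detected on every array. Of 12 markers of other cell types, 4 were detected on no array (PTPRC, PECAM1, ALB and COL1A2) and 8 on all 4, among them KRT14 with deposited intensities of 152.8 to 208.0. The summed deposited intensity of the 12 was 318 in stimulated and 241 in unstimulated 4KR cells, and 323 in stimulated and 244 in unstimulated LGP2 cells. Most of each sum came from KRT14 and KRT5 (52.1 to 70.8), and missing values, such as those of CD3E on all arrays, added nothing. The 6 HEK293 markers summed to 642 in stimulated and 734 in unstimulated 4KR cells, and to 685 and 725 in LGP2 cells. The part of these sums in the results was not tested. DHX58, the gene of LGP2, had intensities of 42.6 and 22.8 in stimulated and unstimulated 4KR cells and of 51.0 and 41.4 in LGP2 cells. Its probe may lie outside the transgene sequence and therefore does not check the labels.

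The main question was how the RNA of these genes differed between 12 h and 0 h in each line. None of the 9 genes reached a 1.5-fold ratio in either direction in either line. In bulk RNA, fewer cells that express a gene and less of its RNA per cell cannot be told apart. Among 16564 genes in 4KR cells, 1.59% passed that ratio upward and 0.423% downward, and among 16675 genes in LGP2 cells 1.88% and 0.510% did. In both lines at once 1.11% of 16302 genes passed upward and 0.0859% downward. A 2-fold ratio was reached by none of the 9 genes, against 0.411% of genes upward and 0.00604% downward in 4KR cells, 0.438% and 0.0120% in LGP2 cells, and 0.362% upward in both. TRAF6, TANK, TRAF3, TBK1 and RNF135 had ratios above 0 in both lines, MAVS, IKBKE and TRADD had ratios below 0 in both, and IKBKG differed in sign between the lines. Set against the median of all genes, those signs held in every one of 8 ways of computing the values, except that IKBKE was above 0 in LGP2 cells in 2 of them. Those 2, no normalization between arrays and median scaling, give identical values once the median is subtracted. They are therefore not separate checks. The brightest probe setting likewise repeats the reported ratio of every gene with 1 probe, which is all but TANK and TBK1. For comparison, 32.1% of the 15738 genes detected on all arrays were above 0 in both lines and 42.9% were below 0 in both. Of 14 genes listed as controls, 11 could be counted, with a median log2 ratio of -0.205 in 4KR cells and -0.204 in LGP2 cells. The median log2 ratio of the 9 genes was 0.01 in 4KR cells and 0.18 in LGP2 cells, against a median over all genes of -0.01 in each line. These ratios are on the scale used for all fits, after normexp background correction with an offset of 50 and quantile normalization. The offset shrinks ratios of dim genes, so intensities of the authors' deposited table, scaled there to a median of 25 on every array, are given beside them. In that table the ratios of all genes had a median of 0.14 in 4KR cells and 0.25 in LGP2 cells (log2).

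**Figure D1:**
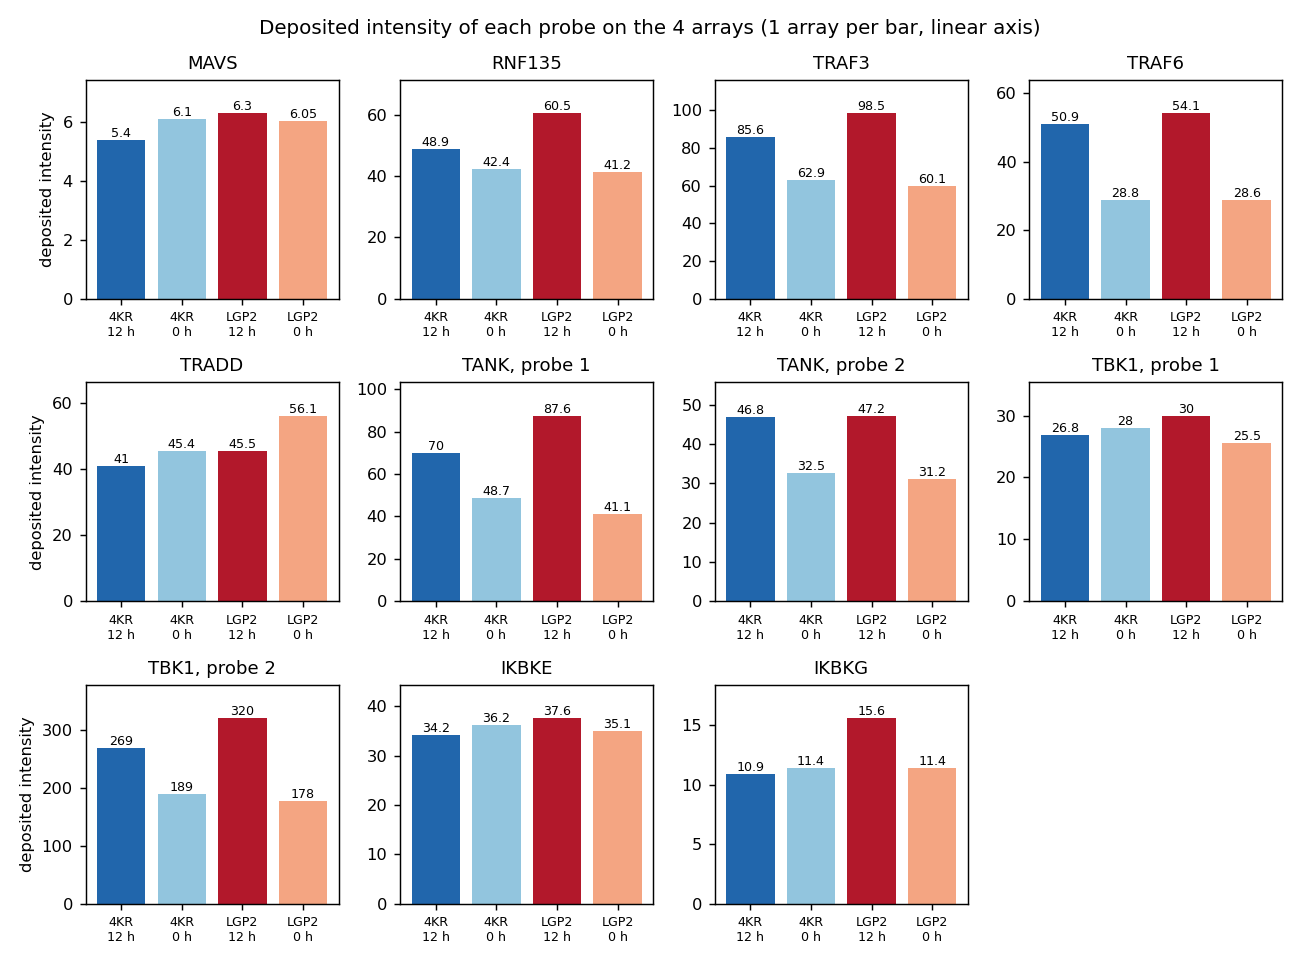
Deposited intensity (linear, vertical axis from 0) of the 11 probes on the 4 arrays, 1 bar per array, with the 12 h array left of the 0 h array of the same line. TRAF6 stood at 50.9 and 54.1 at 12 h and at 28.8 and 28.6 at 0 h in 4KR and LGP2 cells, while MAVS lay between 5.40 and 6.30 on all arrays.

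One test was possible, a limma fit over all 17085 genes detected on at least 1 array, with 12 h against 0 h and the line as a second term. There the 2 lines stand in for replicates and any true difference between their responses counts as spread. With 1 residual degree of freedom per gene, each SE leans on a spread that limma pools over all genes. At an adjusted p under 0.05 (Benjamini-Hochberg over all genes), 7.95% of genes were called higher and 7.30% lower. Of the 9 genes, TRAF6 rose, 0 fell, and TANK, TRAF3 and TRADD lay close to the threshold. A share of 1 in 9 is not far from that background.

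MAVS is the adaptor to which the RNA sensors connect through their caspase recruitment domains. Its probe read 5.40 in stimulated and 6.10 in unstimulated 4KR cells, and 6.30 in stimulated and 6.05 in unstimulated LGP2 cells. This was the dimmest probe of the group, between 9.51 and 10.3 SD of the blank spots above the blank level. The log2 ratio was -0.08 in 4KR cells and -0.06 in LGP2 cells (adjusted p = 0.237, limma). The offset shrinks the ratio of so dim a probe. Relative to the median gene, it ran over all settings from -0.41 to -0.06 in 4KR cells and from -0.31 to -0.05 in LGP2 cells. The lowest values came with plain subtraction of the blank level, where the limma estimate was -0.39 (adjusted p = 0.0855). With each array scaled to its median in place of quantile normalization, the limma estimate for MAVS was -0.19 with an adjusted p of 0.0250, so the call depended on the scaling. In that setting the genes of the group had nearly the same SE, 0.059 to 0.063, so that p hardly reflects the spread of MAVS.

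RNF135, also called Riplet, is the ubiquitin ligase that attaches chains to RIG-I and thereby helps it to engage MAVS. Its intensities were 48.9 in stimulated and 42.4 in unstimulated 4KR cells, and 60.5 in stimulated and 41.2 in unstimulated LGP2 cells. The log2 ratios were 0.01 and 0.18. The limma estimate was 0.09 ± 0.06 (SE, adjusted p = 0.356), so no change was called. With median scaling it was 0.24 (adjusted p = 0.00712, limma) and without normalization between arrays 0.46 (adjusted p = 5.18e-05), so the call depended on the scaling. Without normalization every gene of the group had the same SE, 0.10, so that p does not measure the spread of RNF135. With median scaling the SEs of the group were nearly the same, 0.059 to 0.063, so that p hardly reflects the spread of RNF135 either. The median gene there stood at 0.28 in 4KR cells and 0.13 in LGP2 cells. The difference between the lines was -0.17 (4KR minus LGP2).

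TRAF6, the ligase whose ubiquitin chains activate the kinase TAK1 and through it the IKK complex, was the gene with the largest mean response. Its intensity was 50.9 in stimulated and 28.8 in unstimulated 4KR cells, and 54.1 in stimulated and 28.6 in unstimulated LGP2 cells. Both stimulated arrays lay above both unstimulated arrays, and the lines gave nearly the same values at each time. The log2 ratios were 0.38 in 4KR cells and 0.37 in LGP2 cells, on top of a nearly equal level at 0 h. The limma estimate was 0.37 ± 0.03 (SE, adjusted p = 0.0245). MAVS had the same SE of 0.03 in that fit, so it does not measure the spread of TRAF6 alone. Ratios of the deposited intensities were 1.77-fold and 1.89-fold, or 1.60-fold and 1.59-fold relative to the median gene of that table. With plain subtraction of the blank level the estimate was 0.64 but its adjusted p was 0.0585, the highest of the 10 fits, of which 9 gave an adjusted p under 0.05. The reported fit, the 2 detection filters and the brightest probe used the same TRAF6 values, so they are not separate checks. The same holds for counts of fits given for the other genes, save that the brightest probe of TANK gives other values.

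TRAF3 binds MAVS and brings in TBK1, and is the TRAF protein most tied to interferon induction. It read 85.6 in stimulated and 62.9 in unstimulated 4KR cells, and 98.5 in stimulated and 60.1 in unstimulated LGP2 cells. Again both stimulated arrays exceeded both unstimulated ones. The log2 ratios were 0.20 and 0.32, and the limma estimate of 0.26 ± 0.05 (SE) missed the threshold with an adjusted p of 0.0519. Over the 10 fits made, that p ranged from 8.84e-10 to 0.107 and was under 0.05 in 5. The lowest came without normalization between arrays, where every gene of the group had the same SE, 0.10.

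TANK is a scaffold that binds TRAF3 and links it to TBK1 and IKK-epsilon. Its 2 probes differed in size. The first read 70.0 in stimulated and 48.7 in unstimulated 4KR cells, and 87.6 in stimulated and 41.1 in unstimulated LGP2 cells, with log2 ratios of 0.23 and 0.55. The second read 46.8 in stimulated and 32.5 in unstimulated 4KR cells, and 47.2 in stimulated and 31.2 in unstimulated LGP2 cells, with log2 ratios of 0.20 and 0.18. On each probe both stimulated arrays were above both unstimulated arrays. Their mean gave 0.22 in 4KR cells and 0.37 in LGP2 cells, and a limma estimate of 0.29 ± 0.05 (SE, adjusted p = 0.0511). Over the 10 fits that p ranged from 3.23e-09 to 0.0846 and was under 0.05 in 6. The lowest came without normalization between arrays, where every gene of the group had the same SE, 0.10.

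TBK1, the kinase that phosphorylates IRF3, also had 2 probes, and these disagreed. The brighter read 268.9 in stimulated and 188.8 in unstimulated 4KR cells, and 319.9 in stimulated and 177.9 in unstimulated LGP2 cells, with log2 ratios of 0.38 and 0.58. The dimmer read 26.8 in stimulated and 28.0 in unstimulated 4KR cells, and 30.0 in stimulated and 25.5 in unstimulated LGP2 cells, with log2 ratios of -0.12 and -0.01. On the brighter probe both stimulated arrays were above both unstimulated ones on either scale. The dimmer probe's intensities were mixed in order, while on the normalized log2 scale its stimulated arrays, at 6.68 and 6.73, lay below its unstimulated arrays, at 6.80 and 6.74, in 4KR and LGP2 cells. The mean of both gave a limma estimate of 0.21 ± 0.05 (SE, adjusted p = 0.0989), whereas the brighter probe alone gave 0.48 with an adjusted p of 0.0358. Which probe follows the TBK1 transcripts of these cells was not tested.

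IKBKE encodes IKK-epsilon, the inducible relative of TBK1 that shares its substrates. It read 34.2 in stimulated and 36.2 in unstimulated 4KR cells, and 37.6 in stimulated and 35.1 in unstimulated LGP2 cells. These 4 intensities lay close together with the times mixed in order. On the normalized log2 scale both stimulated arrays lay below both unstimulated ones, at 6.86 and 6.90 in stimulated and 7.02 and 6.99 in unstimulated 4KR and LGP2 cells. The log2 ratios were -0.16 and -0.09, with a limma estimate of -0.13 ± 0.03 (SE, adjusted p = 0.112). None of the 10 fits gave an adjusted p under 0.05 for it.

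TRADD, a death domain adaptor that joins MAVS and forms a complex with RIPK1, had the lowest ratios of the 9 genes. It read 41.0 in stimulated and 45.4 in unstimulated 4KR cells, and 45.5 in stimulated and 56.1 in unstimulated LGP2 cells. Among these intensities the stimulated LGP2 value slightly exceeded the unstimulated 4KR value. On the normalized log2 scale both stimulated arrays lay below both unstimulated ones, at 7.01 and 7.05 in stimulated and 7.22 and 7.41 in unstimulated 4KR and LGP2 cells. The log2 ratios were -0.21 and -0.37, and the limma estimate was -0.29 ± 0.05 (SE, adjusted p = 0.0570), with 3 of the 10 fits under 0.05. The median of the 11 control genes was -0.205 in 4KR cells and -0.204 in LGP2 cells. Without normalization between arrays the 4KR ratio was 0.24, below the 0.28 of the median gene in that setting.

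IKBKG encodes NEMO, the ubiquitin-binding regulatory subunit of the IKK complex. It read 10.9 in stimulated and 11.4 in unstimulated 4KR cells, and 15.6 in stimulated and 11.4 in unstimulated LGP2 cells. Among these intensities the stimulated LGP2 array was the highest. On the normalized log2 scale the values were 6.20 in stimulated and 6.27 in unstimulated 4KR cells, and 6.33 in stimulated and 6.28 in unstimulated LGP2 cells. The log2 ratios were -0.08 in 4KR cells and 0.05 in LGP2 cells, and the limma estimate was -0.01 ± 0.05 (SE, adjusted p = 0.897). IKBKG has a near-identical pseudogene copy, and whether the probe separates them was not tested.

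Promoter sequences of TRAF3, TRAF6, TBK1 and TANK, which had ratios above 0 in both lines, are printed to show what lies at their start sites. RefSeq (GRCh38.p14) gave 14 promoters for 8 of the 10 genes, each from 250 bases before to 50 bases after a start. They were searched on both strands for a kB motif (GGG, any 2 bases, then TTTCC) and an interferon-stimulated response element (GAAA, any 2 bases, then GAAA), motifs chosen after the sequences had been read. The 2 motifs do not overlap in any match here. Capitals mark a match. TRAF3 held 1 kB match, GGGGATTTCC, 33 to 24 bases before its start, and neither motif was found in the windows of MAVS, TRAF6, TANK, TBK1, IKBKE and IKBKG. RIPK1, which had no probe, held the response element on the reverse strand (TTTCGGTTTC) in the windows of its starts 2 and 3. Those windows overlap and share this site. RNF135 and TRADD had no entry and were not searched. Of all 35116 promoters of that length, 1.91% held the kB motif and 3.57% the response element.
TRAF3, chr14:102777199-102777498, plus strand: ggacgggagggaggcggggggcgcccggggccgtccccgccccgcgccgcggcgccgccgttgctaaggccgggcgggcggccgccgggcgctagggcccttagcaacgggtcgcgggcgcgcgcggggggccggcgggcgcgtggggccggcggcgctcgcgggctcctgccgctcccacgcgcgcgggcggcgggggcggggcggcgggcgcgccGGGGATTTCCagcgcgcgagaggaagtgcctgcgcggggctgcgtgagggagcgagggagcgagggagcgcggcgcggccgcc
TRAF6, chr11:36510223-36510522, minus strand: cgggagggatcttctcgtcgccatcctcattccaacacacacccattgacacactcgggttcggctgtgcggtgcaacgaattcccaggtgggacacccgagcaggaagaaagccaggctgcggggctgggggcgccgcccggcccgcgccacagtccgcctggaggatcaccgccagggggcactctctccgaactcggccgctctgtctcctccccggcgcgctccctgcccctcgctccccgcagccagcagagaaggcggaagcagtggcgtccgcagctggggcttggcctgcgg
TBK1, chr12:64451870-64452169, plus strand: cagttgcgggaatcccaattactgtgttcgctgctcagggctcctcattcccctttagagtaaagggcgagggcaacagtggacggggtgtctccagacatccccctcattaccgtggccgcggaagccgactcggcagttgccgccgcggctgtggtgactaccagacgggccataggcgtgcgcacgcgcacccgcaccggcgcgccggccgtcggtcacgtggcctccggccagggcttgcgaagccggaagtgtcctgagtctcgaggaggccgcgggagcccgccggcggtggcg
TANK, chr2:161136713-161137012, plus strand: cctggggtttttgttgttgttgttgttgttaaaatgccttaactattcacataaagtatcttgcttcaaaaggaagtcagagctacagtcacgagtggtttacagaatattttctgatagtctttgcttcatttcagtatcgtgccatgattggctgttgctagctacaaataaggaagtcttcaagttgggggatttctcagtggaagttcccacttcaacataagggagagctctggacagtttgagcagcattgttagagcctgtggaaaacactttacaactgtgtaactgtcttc
TANK, chr2:161160178-161160477, plus strand: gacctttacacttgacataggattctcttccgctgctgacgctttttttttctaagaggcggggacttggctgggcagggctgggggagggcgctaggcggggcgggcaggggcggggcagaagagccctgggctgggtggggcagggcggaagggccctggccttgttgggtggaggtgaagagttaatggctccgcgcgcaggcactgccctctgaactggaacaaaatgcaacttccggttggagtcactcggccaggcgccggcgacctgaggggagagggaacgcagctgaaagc

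The second question was whether the responses differed between the lines, which has no test because 1 array stands for each group. The difference of the log2 ratios (4KR minus LGP2) ran from -0.17 for RNF135 to 0.16 for TRADD, and 0 of the 9 genes reached 1.5-fold, against 0.451% of genes upward and 0.426% downward. On the scale used for all fits, all 9 differences lay inside the range from the 5th to the 95th percentile of all genes, -0.21 to 0.21. TBK1, TANK, IKBKG and TRAF3 were at -0.16, -0.15, -0.13 and -0.13, IKBKE and MAVS at -0.06 and -0.01, and TRAF6 at 0.01. The ratio was thus smaller in 4KR cells for 7 of the 9 genes, as it was for 50.7% of all genes detected on every array. Relative to the median of all genes, the same 7 were below 0 and the other 2 above 0 in each of the 8 settings in which the values were recomputed. Of these settings, no normalization between arrays and median scaling give identical values on that measure. The brightest probe repeats the reported ratios of genes with 1 probe. Without normalization between arrays, and not set against the median gene, 8 of the 9 were above 0, all but IKBKG. The sizes moved as well, most of all for the dim gene IKBKG. Not set against the median gene, its difference was -0.51 in the deposited table, the largest in size of the 9 genes there. It was -0.42 where the blank level was simply subtracted, also the largest in size, and -0.03 without normalization between arrays.

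**Figure D2:**
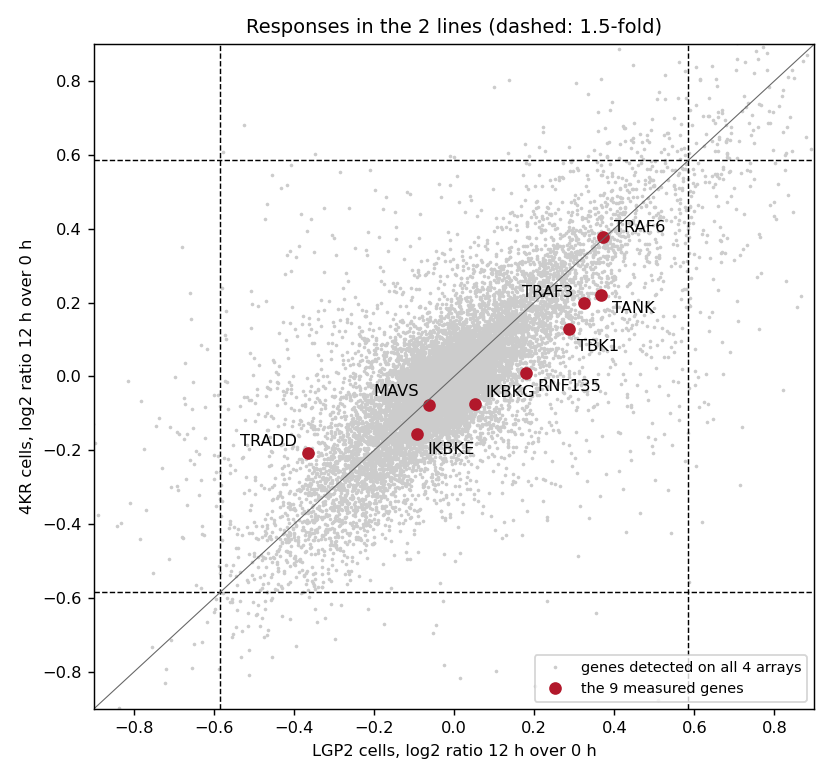
Log2 ratio of 12 h over 0 h in LGP2 cells (horizontal) and 4KR cells (vertical) for the 9 genes (red) and all genes detected on the 4 arrays (grey), within the plotted range. The 9 genes lie inside the dashed 1.5-fold lines, TRAF6 is on the diagonal at 0.37 and 0.38, and TRADD is lowest on the horizontal axis at -0.37.

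Between the lines at the same time the 9 genes were also close. At 12 h the log2 ratio of 4KR over LGP2 cells ran from -0.14 for RNF135 to 0.01 for TRAF6, and at 0 h from -0.19 for TRADD to 0.09 for TANK. With the times standing in for replicates, the limma fit called 0 of the 17085 genes different between the lines, with 828 (4.85%) at an unadjusted p under 0.05 and none of the 9 among them. The estimates for the 9 ran from -0.12 for TRADD to 0.02 for TANK, with adjusted p from 0.872 to 0.996.

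**Figure D3:**
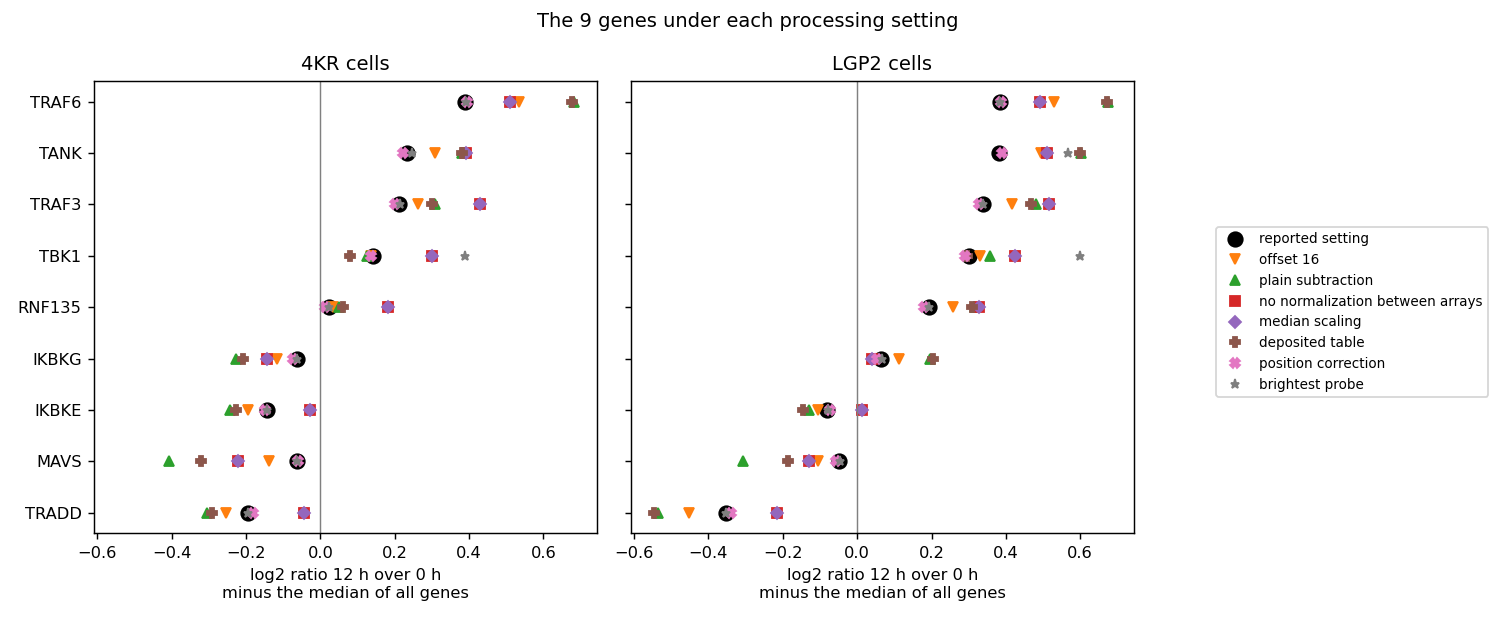
Log2 ratio of 12 h over 0 h, minus the median of all genes, for each gene in 4KR cells (left) and LGP2 cells (right), with 1 symbol per processing setting. TRAF6, TANK, TRAF3, TBK1 and RNF135 lie right of 0 in all 8 settings in both lines, MAVS and TRADD lie left of 0 in all 8, and IKBKE crosses 0 in LGP2 cells. The symbols for no normalization between arrays and median scaling coincide.

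Probes of the 9 genes lay in blocks 8, 10, 12, 13, 14, 15, 18 and 19 of the 24 printed blocks. In these blocks the median log2 ratio of all probes lay between -0.02 and 0.02 in both lines. With block medians subtracted, the ratios of TRAF6 were 0.38 in 4KR cells and 0.37 in LGP2 cells.

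The genes around these on the same pathway give the setting. In lists of 103 further pathway genes, chosen with earlier results of these data known, 96 could be counted in both lines. Of these, 10 passed 1.5-fold upward in 4KR cells, 11 in LGP2 cells and 9 in both, against 1.59%, 1.88% and 1.11% of all genes. None passed downward. The limma fit called 19 of the 96 higher and 2 lower, against 7.95% and 7.30% of all genes. Their median log2 ratio was 0.05 in 4KR cells and 0.03 in LGP2 cells.

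Upstream of MAVS, the sensor genes RIGI and IFIH1, which encode RIG-I and MDA5, had log2 ratios of 4.00 and 2.37 in 4KR cells and of 4.14 and 2.43 in LGP2 cells. Among the 11 receptors and cofactors they were the genes past 1.5-fold in both lines. TRIM25, another ligase described for RIG-I, was at 0.39 and 0.37 (adjusted p = 0.0245, limma). In all, the limma fit called 4 of the 11 higher and 1 lower. None of the 12 mitochondrial neighbours of MAVS passed 1.5-fold in either line. Of 13 genes that remove MAVS or TBK1 or regulate their turnover, OTUD1, a deubiquitinase, passed in both, at 0.89 in 4KR cells and 0.90 in LGP2 cells.

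Beside the kinases, 0 of 6 further TRAF family and partner genes, 0 of 10 IKK and TAK1 genes, 0 of 4 genes of the linear ubiquitin ligase and its antagonist and 0 of 7 death domain and caspase genes passed 1.5-fold in either line. IFIT3, an interferon-induced protein reported to link MAVS with TBK1, was the exception among 7 further partners of TBK1, at 6.06 in each line. TNFAIP3, the ubiquitin-editing enzyme A20 that restrains TBK1 and IKK signalling, was the exception among 11 deubiquitinases and A20 partners, at 3.07 in 4KR cells and 3.08 in LGP2 cells. CYLD, a deubiquitinase of the same pathway, was at 0.35 and 0.42 (adjusted p = 0.0251, limma).

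Downstream, 4 of 15 transcription factor and inhibitor genes passed 1.5-fold in both lines. These were NFKBIA, the inhibitor of NF-kB, at 2.60 in 4KR cells and 2.13 in LGP2 cells, IRF7 at 2.02 and 1.80, JUN at 1.38 and 1.90 and RELB at 0.71 and 0.80. IRF3, the main substrate of TBK1, was at -0.07 and -0.08 (adjusted p = 0.208, limma). All 11 induced genes chosen as readouts of IRF3 and NF-kB were higher by more than 1.5-fold in both lines, though they were picked as induced genes and include NFKBIA and TNFAIP3. IFNB1, which encodes interferon beta, read 579.5 in stimulated and 9.60 in unstimulated 4KR cells, and 613.4 in stimulated and 7.82 in unstimulated LGP2 cells.

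**Figure D4:**
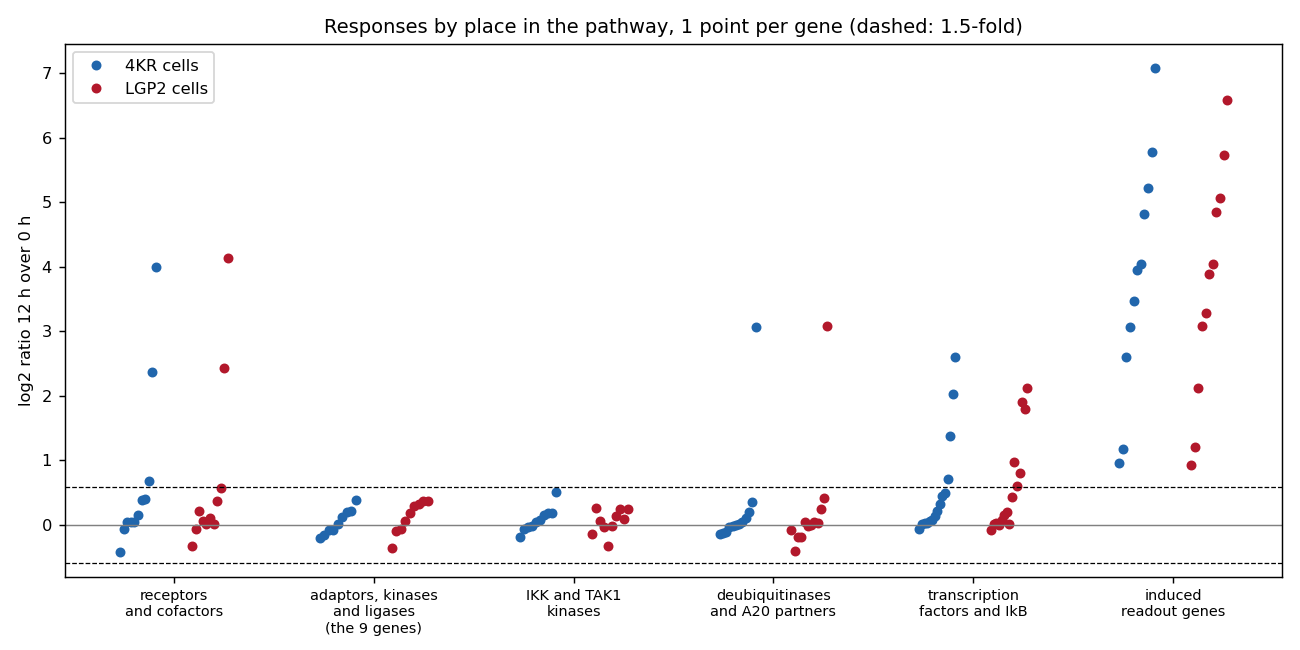
Log2 ratio of 12 h over 0 h, 1 point per gene, in 4KR cells (blue) and LGP2 cells (red), ordered by place in the pathway, with dashed lines at 1.5-fold. The 9 adaptor, kinase and ligase genes lie between -0.37 and 0.38, RIGI stands at 4.00 and 4.14 among the receptors, and the readout genes reach 7.08 and 6.58.

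The genes whose centred values over the 4 arrays were most like those of TRAF6 were RWDD2A, EED and ZNF280C, with mean absolute differences of 0.0029, 0.0045 and 0.0048 on the log2 scale. With 4 arrays, likeness of this kind is a description only. Their ratios were between 0.37 and 0.38 in 4KR cells and between 0.38 and 0.39 in LGP2 cells.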

How the data were processed

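Total RNA was amplified to amino allyl aRNA and coupled to Cy5, per the labels' protocols. Scanner tables deposited per array hold, per the file headers, 1 median intensity for each of 27456 spots, linear and not normalized. The authors' deposited series table matches these intensities less a background near the average of 384 blank spots, multiplied to a median of 25 per array (largest residual 0.0530). The scanner's background column correlated with the signal at 0.990 to 0.997 and was not used. Blank spots gave the background instead.

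Spot intensities were corrected with limma 3.58.1 in R 4.3.3 (normexp, offset 50), quantile normalized over the 4 arrays and put on the log2 scale. Probes passing the blank mean plus 2 SD counted as detected. In the platform annotation 21707 probes had 1 gene, 0 had several and 2753 had none. RefSeq (GRCh38.p14) held the genes of 21675 of the 21707 named probes. Probes of a gene were averaged, giving 18639 genes. To count as past 1.5-fold, a gene had to be detected on whichever array was brighter. The additive limma fit had 1 residual degree of freedom per gene. The number of arrays limits the precision. The fit was tried on simulated data in which both lines changed alike, with 1 noise level taken from bright probes. That differs from these arrays, so the simulation does not check the calls for dim genes or for lines that respond differently.

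Genes named were the 10 listed and every pathway list's genes past 1.5-fold in both lines (at most 4 per list). The 3 genes most like the member with the largest mean response were named too. TRIM25, CYLD, IRF3 and KRT14 were named after their values were seen. IFNB1, KRT5 and CD3E were also named outside these rules. Members and lists were chosen with earlier results of these data known. Alternatives were an offset of 16, plain subtraction, no normalization between arrays, median scaling, the deposited table, block medians subtracted, 2 detection filters and the brightest probe.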

Additional observations from a re-analysis of the deposited data

Results flagged for a closer look

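IKBKG was the gene of the group whose ratio moved in opposite directions in the lines, with a log2 ratio of 12 h over 0 h of -0.0757 in 4KR cells and 0.0515 in LGP2 cells. The difference was not tested, because each line has 1 array per time. The spread of the difference between lines over the genes detected on all 4 arrays, scaled to a single ratio, was 0.0625 (from the median absolute deviation). That is not an error of an IKBKG ratio, so it cannot tell whether either ratio differs from 0. The difference, -0.13 (4KR minus LGP2), lay inside the range from the 5th to the 95th percentile of those genes, -0.21 to 0.21.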

How the results depend on the processing

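Counts moved with scaling and with the handling of dim signal. Beside the counts of 0 for the 9 genes past 1.5-fold, the deposited table put 1 higher in 4KR cells and 3 in LGP2 cells, no normalization between arrays 3 and 3, and plain subtraction 1 and 1. In the limma fit the main count of 1 called higher and 0 lower became 3 and 1 with an offset of 16, with the position correction and with detection on all 4 arrays. It became 5 and 1 with median scaling, 5 and 0 without normalization, 2 and 0 with the deposited table and with the brightest probe, and 0 and 0 with plain subtraction. These counts are to be read beside those over all genes below, which moved as well.

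Over all genes, those at least 1.5-fold higher numbered 263 of 16564 in 4KR cells and 313 of 16675 in LGP2 cells. The counts were 456 and 515 with an offset of 16, 1120 and 1284 with plain subtraction and 2645 and 1180 without normalization. They were 752 and 609 with median scaling and 2041 and 3118 in the deposited table. Those lower numbered 70 and 85, against 159 and 179, 588 and 707, 1 and 8, 12 and 37, and 181 and 140 in the same order of settings. Of 17085 genes, the limma fit called 1359 higher and 1247 lower at 12 h, against 300 and 18 with plain subtraction. It called 6927 and 21 without normalization, 4038 and 3312 with median scaling and 1879 and 1764 with an offset of 16. With the position correction the counts were 1874 and 1839, and with the brightest probe 1372 and 1251. Detection on all 4 arrays left 15738 genes, with 1424 called higher and 1345 lower. The deposited table, where genes with missing values were left out, gave 2050 and 43. Between the lines the limma fit called 0, against 3 higher and 20 lower with median scaling and 17 and 20 without normalization, and none of the 9 genes in any setting. The causes were not tested. The labels carry no replicate numbers, and each group was 1 array. No fit beyond the additive one, which has time and line as its terms, could therefore be made. The dimmest genes, MAVS and IKBKG, are limited most by signal over background.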
